A study of Mus musculus with 8 samples.

Results

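The cytosolic ribosomal protein genes are the genes that encode the protein subunits of the ribosome in the cytoplasm. They were taken by symbol from the probes of a mouse expression beadchip: every Rpl or Rps gene with digits and an optional letter, with Rplp0, Rplp1, Rplp2, Rpsa and Fau, and without Rps6k kinases and pseudogenes. This gave 61 genes, read by 78 probes, of 16593 named genes on the array. Of these, 35 encode proteins of the large (60S) subunit, 23 encode proteins of the small (40S) subunit, and 3 are paralogs (Rpl3l, Rpl39l and Rps27l). Each gene is given by its brightest probe.

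A ribosome joins a small subunit, which reads the messenger RNA, to a large subunit, which forms the peptide bonds, with most proteins present as a single copy. Ribosomal protein messengers are among the most abundant of growing cells, and many begin with a run of C and T bases, the terminal oligopyrimidine (TOP) motif, through which mTOR signalling controls their translation. Some paralogs replace the usual subunit in particular tissues, such as Rpl3l in skeletal and heart muscle.

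RNA of prostates was measured on 8 arrays, 1 per sample, from mice of the C57Bl/6 strain. The groups were tumours of TRAMP mice carrying the KitW-sh allele at 24 weeks (n = 1), tumours of TRAMP mice at 24 weeks that had received cromolyn from 8 weeks of age (n = 3), tumours of untreated TRAMP mice at 30 weeks (n = 2), and wild-type prostates without tumour at 30 weeks (n = 2). The TRAMP transgene drives viral T antigens from a probasin promoter in prostate epithelium, KitW-sh mice lack mast cells, and cromolyn is a drug that stabilises mast cells. Age and group cannot be told apart in the comparisons of KitW-sh or cromolyn with the other groups, since those tumours were taken at 24 weeks and the others at 30 weeks. Whether replicates came from different animals is not stated, and the p-values therefore cover no more than the variation among these arrays, technical variation included.

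Levels are log2 intensities after background correction and quantile normalization, so each is relative to the other probes of its array. A probe was tested if its intensity was above a background limit of 216 on at least 1 array, which is 7.01 on the log2 scale. Differences were tested with limma over 13072 genes or unnamed probes, called genes in the counts, with 1 spread pooled over the 4 groups, and were called at an adjusted p under 0.05. The lone KitW-sh array was thereby assumed to vary like the others, and precision is limited by how few arrays there are. In bulk tissue, fewer cells of a type and less RNA per cell cannot be told apart.

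Summed levels of several cell type markers differed widely between the groups, and cell shares were not measured. None of the tested endothelium, macrophage and lymphocyte markers was called in any comparison. Over 4 mast cell markers the sum was 363 in the KitW-sh tumour and 336 to 398 in cromolyn tumours. It was 631 to 1022 in untreated tumours and 1042 to 1875 in wild type. Summed over the 3 tested luminal epithelium markers (Krt8, Krt18 and Cdh1, of 5 fixed), the intensity was 2444 in the KitW-sh tumour, 328 to 1602 in cromolyn tumours, 44549 to 49005 in untreated tumours and 31577 to 41039 in wild type. In cromolyn tumours none of the 3 was above the limit on all arrays, although the tissue is labelled prostate. Summed over 5 tested neuroendocrine markers (of 6 fixed), it was 45467 in the KitW-sh tumour, 37587 to 39759 in cromolyn tumours, 566 to 598 in untreated tumours and 2020 to 2188 in wild type. Over 4 smooth muscle markers it was 14498 in the KitW-sh tumour, 3580 to 8966 in cromolyn tumours, 93525 to 110231 in untreated tumours and 118840 to 128442 in wild type. The 3 tested proliferation markers (Top2a, Mcm2 and Pcna) summed to 23560 in the KitW-sh tumour, 23925 to 28175 in cromolyn tumours, 10146 to 10513 in untreated tumours and 1353 to 1638 in wild type. Between untreated tumours and wild type, the proliferation sum was higher in the tumours and the neuroendocrine sum was lower. The part of the cells behind these markers in the differences described below was not tested.

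Of the 61 genes, 55 were tested, comprising 31 of the 60S subunit, 22 of the 40S subunit and 2 paralogs, and 53 were above the limit on all 8 arrays. Rpl14, Rpl17, Rpl39l, Rpl6, Rplp2 and Rps23 were not above it on any array, with intensities of 158 to 210. Each of these is read by 1 probe, so a probe that does not read its messenger and an absent messenger cannot be told apart. Rpl3l was above it on 3 arrays, both wild-type arrays and cromolyn replicate 2, and Rpsa on cromolyn replicates 1 and 3 alone, so these 2 genes entered the test through groups in which they were high. At the bright end, 18 of the 55 had an intensity over 40000 on at least 1 array and 8 on every array.

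The ribosomal protein genes as a group stood slightly lower in the KitW-sh and cromolyn tumours. Their median level was 14.10 in the KitW-sh tumour, 14.24, 13.95 and 14.35 in cromolyn replicates 1 to 3, 14.40 and 14.50 in untreated tumours, and 14.57 and 14.47 in wild type. The 4 tumours taken at 24 weeks lay below all 4 samples taken at 30 weeks, and the spread within the cromolyn group was wider than the gap.

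**Figure D1:**
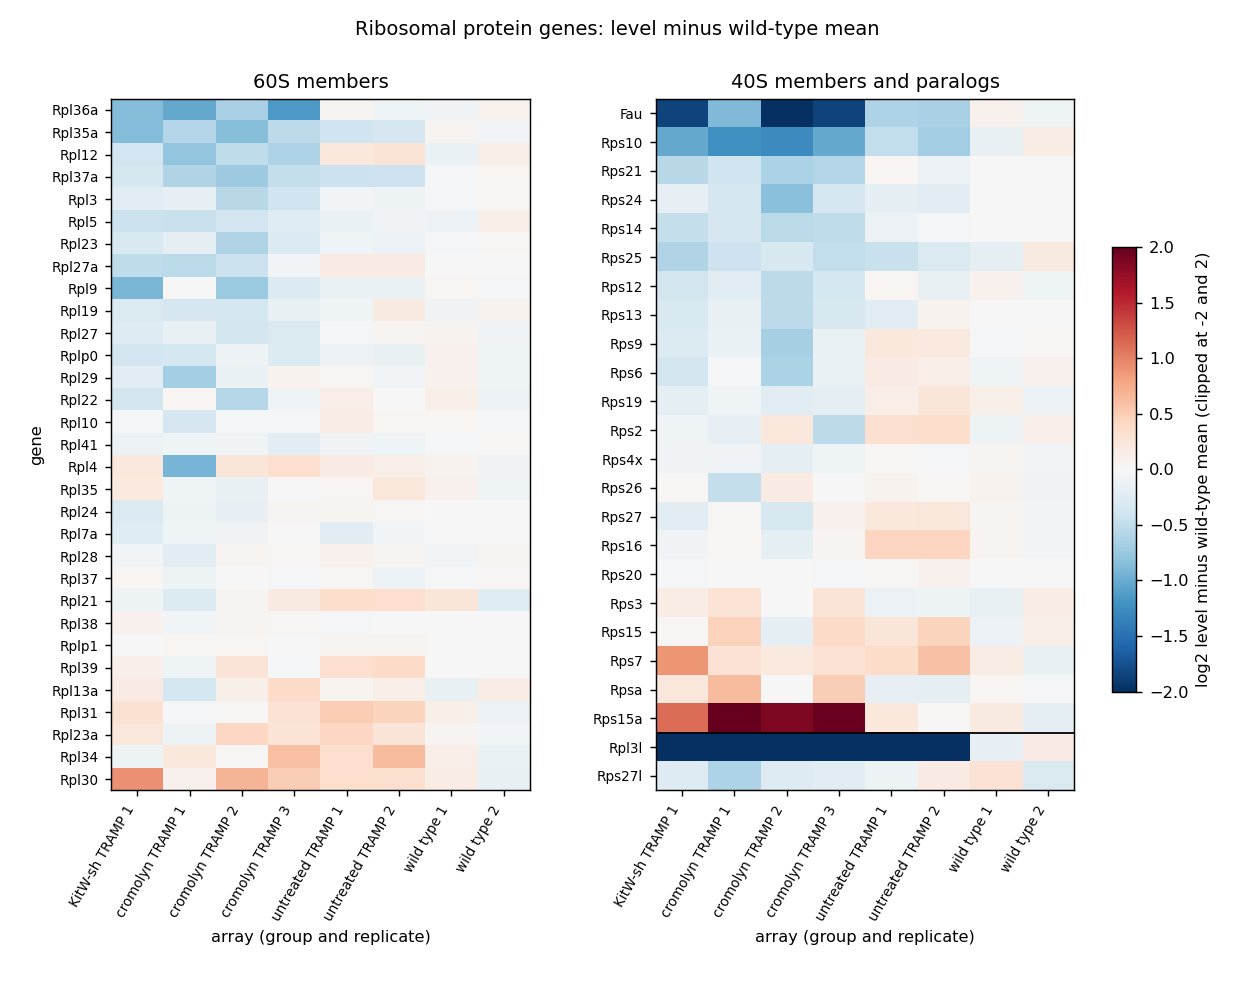
Level of each of the 55 tested ribosomal protein genes on each of the 8 arrays (columns, by group and replicate), as the log2 difference from the wild-type mean, clipped at -2 and 2. Genes are listed by subunit, with paralogs below the line, and most cells lie near 0, while Fau, Rps10, Rpl36a, Rps15a and Rpl3l stand out.

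Cromolyn tumours were set against untreated TRAMP tumours to ask how tumours differ when mast cells are stabilised. In this comparison 1 ribosomal protein gene was higher (Rps15a) and 4 were lower (Rpl36a, Rpl12, Rps10 and Rps21), while 50 were not called. Over all genes tested 36.9% were called, 18.8% higher and 18% lower. The median difference of the 55 genes was -0.25 (log2), with 48 below 0, beside a median of 0.05 over all genes. The 60S genes had a median of -0.23 with 2 of 31 called lower, and the 40S genes a median of -0.29 with 2 of 22 called lower and 1 higher.

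The shift was small and seen in many genes. In 32 of the 55 genes all 3 cromolyn tumours lay below both untreated tumours, and in 3 genes all lay above. The shares over all genes tested were 30.4% below and 33.3% above. Differences stayed within 0.5 on the log2 scale in 85.5% of the ribosomal protein genes and in 47.0% of all genes. Of the 55, 18 had an intensity over 40000 on at least 1 array, where a difference may be understated.

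The KitW-sh tumour was set against untreated TRAMP tumours to ask the same of tumours that grew without mast cells. No ribosomal protein gene was called by limma in either direction, beside 22.6% of all genes called, 11.4% higher and 11.2% lower, and at an unadjusted p under 0.05 there were 1 higher and 6 lower. The median difference was -0.23, with 43 of 55 below 0, beside 0.01 over all genes. It was -0.19 for the 60S and -0.32 for the 40S genes. The KitW-sh tumour lay below both untreated tumours in 42 genes and above both in 11, beside 43.7% and 45.8% of all genes. Both comparisons share the untreated arrays, so their medians are not independent of each other.

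Untreated TRAMP tumours and wild-type prostates, both taken at 30 weeks, differed little in these genes. Of the 55, none was called higher and 1 was called lower, the muscle paralog Rpl3l, beside 6.61% of all genes called, 3.73% higher and 2.88% lower. Rpl3l was above the limit on both wild-type arrays and on neither untreated array, so its high group brought it into this test. The median difference was 0.04, beside -0.01 over all genes, and 94.5% of the ribosomal protein genes lay within 0.5 on the log2 scale, beside 68.5% of all genes. Very bright probes may understate a difference here too. Both untreated tumours lay above both wild-type samples in 20 genes and below them in 16, beside 31% and 30% of all genes.

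Against wild type, cromolyn tumours had 1 ribosomal protein gene higher and 9 lower, beside 45.7% of all genes called, 22.9% higher and 22.8% lower, with a median of -0.15. All cromolyn tumours lay above both wild-type samples in 2 genes and below them in 23, beside 33.3% and 31.1% of all genes. The KitW-sh tumour had 2 higher and 5 lower, beside 31.1% of all genes called, 15.8% higher and 15.2% lower, with a median of -0.20. It lay above both wild-type samples in 12 genes and below them in 33, beside 43% and 42.8% of all genes. Between the KitW-sh tumour and cromolyn tumours, limma called no ribosomal protein gene, beside 0.0229% of all genes higher and 0% lower, and at an unadjusted p under 0.05 there were 1 higher and 1 lower, with a median of -0.00. The KitW-sh tumour lay above all cromolyn tumours in 9 genes and below them in 9, beside 23.9% and 21.3% of all genes.

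Ribosomal protein probes are mostly bright, so bright genes were counted as well, without matching them to the 55. The bright set includes bright ribosomal protein genes, while the 55 include dimmer ones such as Rps15a. Of the 55, 33 were among the 257 brightest probes. Among the 689 genes with a mean level of at least 13, a cut chosen after the values were seen, 21.5% were called in either direction for KitW-sh and 35.8% for cromolyn, each against untreated tumours, where the ribosomal protein genes had 0 and 5 calls of 55. The residual spread between replicates had a median SD of 0.15 for the 55 genes, 0.18 for the bright genes and 0.25 for all genes.

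**Figure D2:**
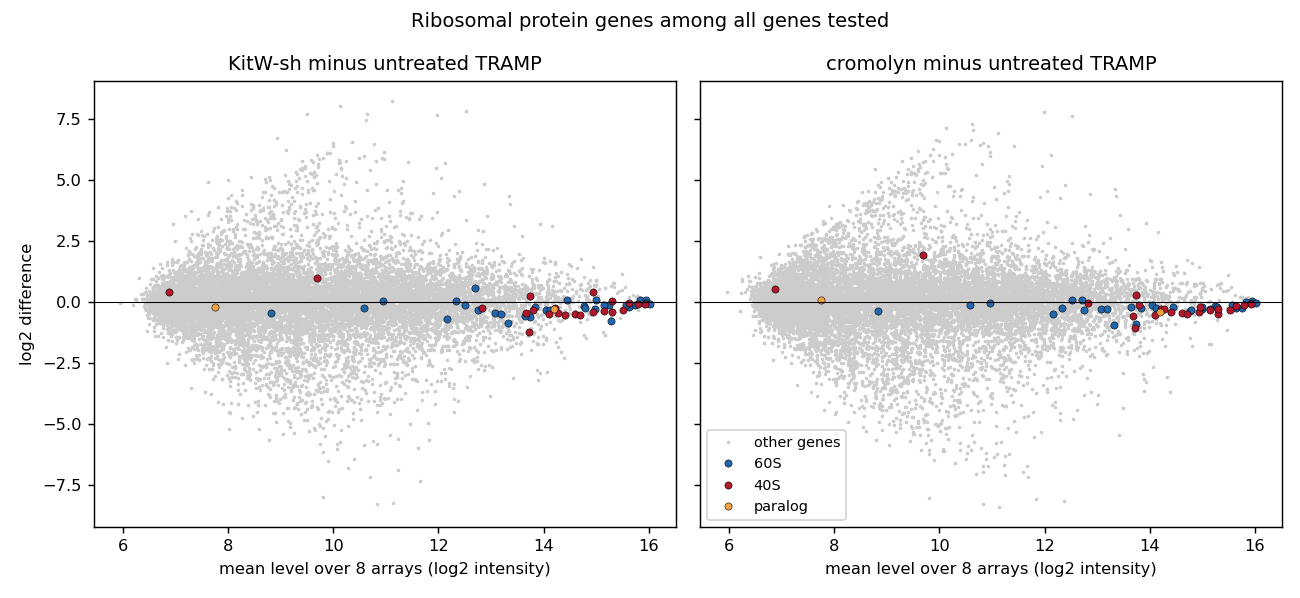
Log2 difference from untreated TRAMP tumours (vertical axis) against the mean level over the 8 arrays (horizontal axis) for the KitW-sh tumour (left) and cromolyn tumours (right), 1 point per gene among 13072. Ribosomal protein genes (60S blue, 40S red, paralogs orange) lie mostly at the bright end and close to 0, with medians of -0.23 and -0.25.

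The promoters of the genes that differ most are shown because the C and T run at the start is the feature the TOP motif rests on. They come from the RefSeq promoter table of GRCm38.p6, read 5′ to 3′ on the gene's strand from 60 bases before the annotated start to 30 after, with the longest run of C and T near the start in capitals. The genes, the motifs and the run length were chosen after the values or the sequences were seen.
Fau, chr19:6057887-6057976, plus strand: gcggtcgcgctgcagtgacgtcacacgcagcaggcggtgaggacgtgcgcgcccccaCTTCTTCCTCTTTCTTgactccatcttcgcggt
Rps10, chr17:27635215-27635304, minus strand: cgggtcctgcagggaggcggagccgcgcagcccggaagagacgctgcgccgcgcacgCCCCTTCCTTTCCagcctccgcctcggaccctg
Rps15a, chr7:118116118-118116207, minus strand: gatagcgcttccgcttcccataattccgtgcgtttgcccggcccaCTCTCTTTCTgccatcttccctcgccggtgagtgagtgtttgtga
Rpl36a, chrX:134585594-134585683, plus strand: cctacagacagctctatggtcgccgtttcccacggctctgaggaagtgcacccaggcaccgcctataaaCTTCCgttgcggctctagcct
Rpl12, chr2:32961652-32961741, plus strand: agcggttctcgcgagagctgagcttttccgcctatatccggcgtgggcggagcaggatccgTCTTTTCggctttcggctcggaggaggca
Rpl3l, chr17:24727766-24727855, plus strand: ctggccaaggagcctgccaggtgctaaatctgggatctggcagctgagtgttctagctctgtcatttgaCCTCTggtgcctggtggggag

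The run was 16 bases in Fau, 13 in Rps10 and 10 in Rps15a, against 7 in Rpl12 and 5 in Rpl36a and in the muscle paralog Rpl3l. Rps15a, higher in cromolyn than untreated tumours, and Rps10, lower, both carried a run of at least 8 within 20 bases of the annotated start. Rpl12 and Rpl36a, also called lower in that comparison, carried shorter runs, and Rps21 is not shown. In Fau and Rps10 the marked run spanned the annotated start, whereas in Rps15a it ended upstream of it. The table held a promoter for 52 of the 61 genes. A run of at least 8 within 20 bases of the start stood in 27 of the 52 (51.9%) and in 23.6% of the other genes of the table. Motifs were sought anywhere in the 300 bases, on both strands. The motif CCGGAAG, the core bound by ETS factors, stood in 40.4% of the ribosomal protein promoters and in 9.87% of the others. The motif AAGATGGC, the core of YY1 sites, stood in 11.5% and in 3.17%, and the GC box GGGCGG in 61.5% and in 38.2%. The TATA box letters TATAAA stood in 9.62% and in 15.7%, and Rpl36a was among the genes that held them. A match is a description of the letters and not a binding site.

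Rps15a, a 40S protein, had the largest difference of the 55 genes between cromolyn and untreated tumours. Its level was 9.86 in the KitW-sh tumour, 11.11, 10.61 and 10.74 in cromolyn tumours, 8.96 and 8.77 in untreated tumours, and 8.93 and 8.58 in wild type. All 4 tumours taken at 24 weeks were above all 4 samples taken at 30 weeks, and the KitW-sh tumour lay between the groups. Cromolyn tumours averaged 10.82 ± 0.26 (SD, n = 3), against 8.87 ± 0.13 in untreated tumours (SD, n = 2), a log2 difference of 1.95 ± 0.22 (SE) or 3.87-fold (limma adjusted p = 0.000846). Against wild type the difference of cromolyn tumours was 2.07 ± 0.22 (limma adjusted p = 0.000472). For the KitW-sh tumour it was 0.99 ± 0.29 against untreated tumours, not called (limma adjusted p = 0.0518, range 0.00902 to 0.201), and 1.11 ± 0.29 against wild type (limma adjusted p = 0.0291). The difference from untreated tumours was called under 5 of 17 alternatives, among them without cromolyn replicate 1 (limma adjusted p = 0.0365) and without cromolyn replicate 2 (0.0384). The call against wild type was lost without wild-type replicate 2 (limma adjusted p = 0.0976) and without either untreated tumour (0.0609), within a range of 0.0210 to 0.0976 over 17 alternatives. Rps15a is read by 1 probe, and the 2 cromolyn calls held under all 18 alternatives.

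Fau encodes a ubiquitin-like protein fused to the 40S protein S30. Its level was 12.88 in the KitW-sh tumour, 13.85, 12.46 and 12.89 in cromolyn tumours, 14.12 and 14.09 in untreated tumours, and 14.82 and 14.65 in wild type. Wild type was highest, untreated tumours next and the tumours taken at 24 weeks lowest, without overlap between these ranges. The KitW-sh tumour lay within the cromolyn range, and cromolyn replicate 1 stood well above the other cromolyn tumours. Fau was lower in cromolyn tumours than in wild type by a log2 difference of -1.67 ± 0.39 (limma adjusted p = 0.0126), and in the KitW-sh tumour than in wild type by -1.85 ± 0.52 (0.0364). Without wild-type replicate 1 these calls were lost (limma adjusted p = 0.0676 for cromolyn and 0.107 for KitW-sh), as they were without replicate 2 (0.0565 and 0.0917). The KitW-sh call was also lost without either untreated tumour (0.0697) or cromolyn replicate 3 (0.0570). Over the alternatives the adjusted p ranged from 0.00118 to 0.0676 for cromolyn and from 0.00499 to 0.107 for KitW-sh. Against untreated tumours the differences of -1.04 ± 0.39 with cromolyn and -1.22 ± 0.52 with KitW-sh were not called (limma adjusted p = 0.0777 and 0.144). Without cromolyn replicate 1 both passed, at -1.43 (limma adjusted p = 0.00505, range 0.00505 to 0.251) and -1.22 (0.0236, range 0.00344 to 0.320).

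Rps10 is a 40S protein of the head of the small subunit. Its level was 13.36 in the KitW-sh tumour, 13.16, 13.12 and 13.37 in cromolyn tumours, 13.90 and 13.70 in untreated tumours, and 14.24 and 14.54 in wild type. The tumours taken at 24 weeks, the untreated tumours and wild type formed 3 ranges without overlap. Cromolyn tumours averaged 13.22 ± 0.14 (SD, n = 3), against 13.80 ± 0.14 in untreated tumours (SD, n = 2), a log2 difference of -0.58 ± 0.18 (limma adjusted p = 0.0442). Against wild type the difference was -1.17 ± 0.18 with cromolyn (limma adjusted p = 0.00242) and -1.03 ± 0.24 with KitW-sh (0.0204). The call against untreated tumours was lost when either untreated tumour or any of the cromolyn tumours was left out (limma adjusted p of 0.0531 to 0.260, within a range of 0.0231 to 0.260 over 18 alternatives). The KitW-sh call against wild type was lost without wild-type replicate 2, and its adjusted p ranged from 0.0102 to 0.0687, whereas the cromolyn call against wild type held under all 18.

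Rps21, another 40S protein, had a level of 14.43 in the KitW-sh tumour, 14.58, 14.35 and 14.39 in cromolyn tumours, 15.02 and 14.86 in untreated tumours, and 14.97 and 14.99 in wild type. The tumours taken at 24 weeks were all below the samples taken at 30 weeks. The difference of cromolyn from untreated tumours was -0.50 ± 0.16 (limma adjusted p = 0.0474). It was called under 9 of 18 alternatives, with an adjusted p of 0.0142 to 0.277, and the calls lost included those without either untreated tumour, either wild-type sample, cromolyn replicate 2 and cromolyn replicate 3. In the KitW-sh tumour the difference of -0.51 ± 0.21 was not called (limma adjusted p = 0.139).

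Among 60S genes, Rpl36a had a level of 12.92 in the KitW-sh tumour, 12.77, 13.14 and 12.64 in cromolyn tumours, 13.85 and 13.70 in untreated tumours, and 13.72 and 13.85 in wild type. Again the tumours taken at 24 weeks were all lower, while untreated tumours and wild type overlapped. Cromolyn tumours averaged 12.85 ± 0.26 (SD, n = 3), against 13.77 ± 0.10 in untreated tumours (SD, n = 2), a log2 difference of -0.92 ± 0.20 or 1.89-fold lower (limma adjusted p = 0.0115). The call was lost without either untreated tumour (limma adjusted p = 0.0968 and 0.0644, within a range of 0.00393 to 0.0968). For the KitW-sh tumour the difference of -0.85 ± 0.26 was not called (limma adjusted p = 0.0628, range 0.0127 to 0.229), and it passed without cromolyn replicate 2 (0.0255). Rpl36al, a gene outside the rule whose protein is nearly identical to that of Rpl36a, was also lower with cromolyn (-0.82, limma adjusted p = 0.0110), and the 2 genes may share signal where their messengers are alike.

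Rpl12 sits in the ribosomal stalk base of the 60S subunit. Its level was 13.58 in the KitW-sh tumour, 13.17, 13.45 and 13.34 in cromolyn tumours, 14.17 and 14.24 in untreated tumours, and 13.83 and 14.10 in wild type. Untreated tumours were highest and the tumours taken at 24 weeks lowest, with no overlap between the 3 ranges. The difference of cromolyn from untreated tumours was -0.88 ± 0.17 or 1.85-fold lower (limma adjusted p = 0.00812). It was lost without either untreated tumour (limma adjusted p = 0.0601 and 0.0730, within a range of 0.00326 to 0.0730). In the KitW-sh tumour the difference was -0.63 ± 0.23 and was not called (limma adjusted p = 0.100).

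**Figure D3:**
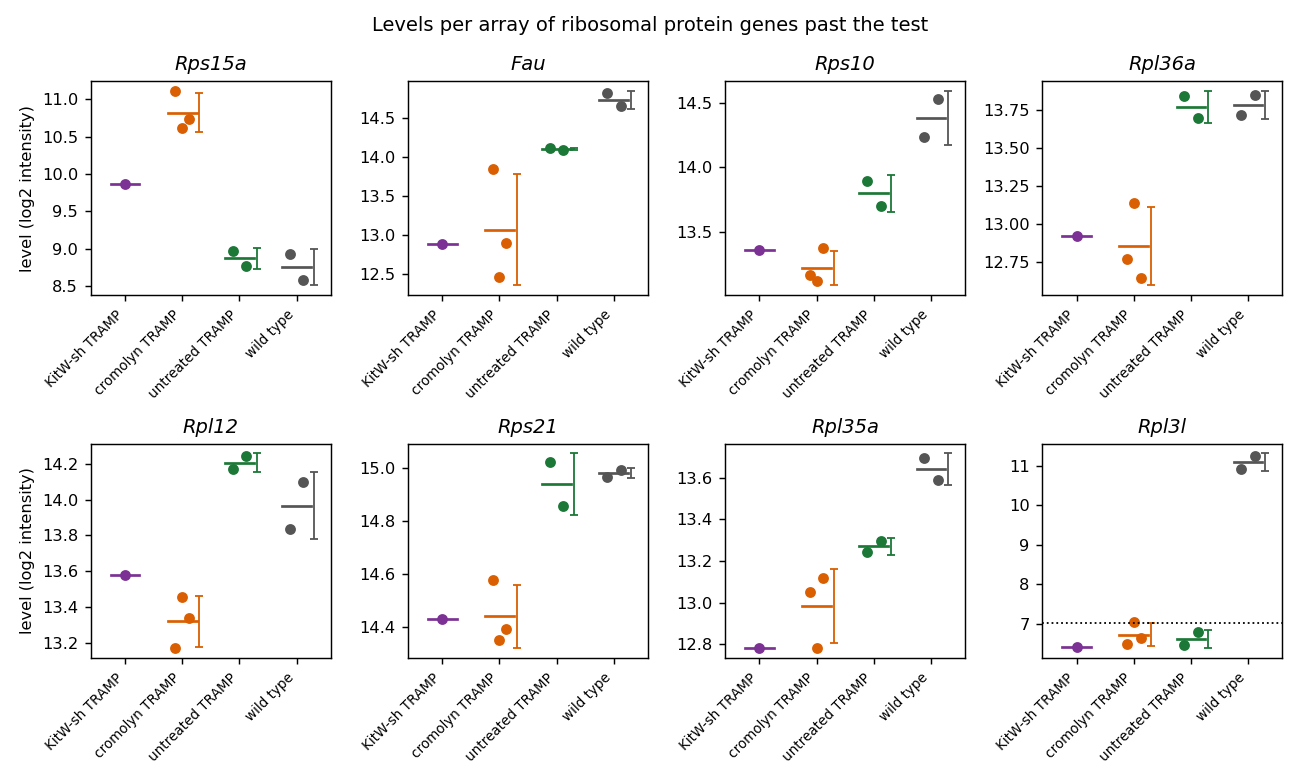
Level (log2 intensity) on each array of 8 ribosomal protein genes called in at least 1 comparison, with KitW-sh, cromolyn, untreated TRAMP and wild-type samples from left to right. Points are arrays, bars are group means and whiskers are 1 SD where a group has over 1 array. The dotted line for Rpl3l is the background limit of 7.01, and Rps15a is the gene of the 8 that was higher in the cromolyn tumours.

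Against wild type the named falls in cromolyn tumours were Rpl3l, Fau and Rps10, described here in their own paragraphs, and the further 6 of the 9 were Rpl36a (-0.93), Rpl35a (-0.66), Rpl12 (-0.64), Rpl37a (-0.60), Rps21 (-0.54) and Rps14 (-0.46). In the KitW-sh tumour the 5 falls were Rpl3l, Fau and Rps10 with Rpl36a (-0.87) and Rpl35a (-0.86). Rpl35a, a 60S protein, had a level of 12.78 in the KitW-sh tumour, 13.05, 12.79 and 13.12 in cromolyn tumours, 13.24 and 13.30 in untreated tumours, and 13.70 and 13.59 in wild type. Its order was the same as that of Fau and Rps10, with wild type highest and untreated tumours between. The further genes in both lists were named after their values were seen. The 9 falls with cromolyn became 2 without wild-type replicate 2 and 4 without wild-type replicate 1. The 5 falls with KitW-sh became 1 without wild-type replicate 2, 2 without wild-type replicate 1 or either untreated tumour, and 3 without cromolyn replicate 3.

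The other rise against wild type in the KitW-sh tumour was Rps7, a 40S protein that also binds Mdm2. Its level was 15.50 in the KitW-sh tumour, 14.91, 14.82 and 14.92 in cromolyn tumours, 14.99 and 15.20 in untreated tumours, and 14.78 and 14.47 in wild type. The KitW-sh tumour was highest and wild type lowest, with cromolyn tumours between wild type and untreated tumours. The difference from wild type was 0.88 ± 0.23 (limma adjusted p = 0.0289), and it was lost without wild-type replicate 2 and without either untreated tumour, within a range of 0.00992 to 0.101. Against untreated tumours the difference of 0.41 ± 0.23 was not called (limma adjusted p = 0.257).

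Rpl3l replaces the 60S protein Rpl3 in muscle. Its level was 6.40 in the KitW-sh tumour, 6.49, 7.04 and 6.64 in cromolyn tumours, 6.45 and 6.78 in untreated tumours, and 10.93 and 11.25 in wild type. Both wild-type samples were far above all tumours, of which cromolyn replicate 2 alone was above the limit. Taking the background limit for samples that did not reach it, Rpl3l was at least 17.0-fold lower in untreated tumours than in wild type (limma adjusted p = 0.000833), and at least 17.0-fold lower in the KitW-sh tumour (limma adjusted p = 0.000302). In cromolyn tumours, with 1 of 3 arrays above the limit, the log2 difference from wild type was -4.37 ± 0.23 (limma adjusted p = 4.78e-05). That array, cromolyn replicate 2, had an intensity of 220, barely over the limit of 216, so the size of this difference rests on signals at background. Rpl3l entered the test through wild type, where it was high, so its p-values against wild type are not independent of how it was selected. Rpl3, the general form, had differences from wild type of -0.20 in the KitW-sh tumour, -0.38 in cromolyn tumours and -0.08 in untreated tumours, none of them called.

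As a sum, skeletal muscle markers were lower in all tumours than in wild type, as Rpl3l was. Unlike Rpl3l, the sum stayed higher in untreated tumours than in the other tumours. Over the 5 markers the summed intensity was 619 in the KitW-sh tumour, 714 to 2758 in cromolyn tumours, 12826 to 18739 in untreated tumours and 42621 to 59835 in wild type. Against wild type 5 of 5 were called lower in the KitW-sh tumour and in cromolyn tumours, and 4 of 5 in untreated tumours. Tnnt3, a fast muscle troponin, was at 6.38 in the KitW-sh tumour, 6.52, 7.36 and 6.50 in cromolyn tumours, 6.52 and 6.67 in untreated tumours, and 11.38 and 11.90 in wild type. As for Rpl3l, both wild-type samples were high and cromolyn replicate 2 was highest among the tumours. Tnnt3 does not stand for the whole list, since 3 of the 5 markers were above the limit on both untreated arrays. The part of muscle in the Rpl3l difference was not tested.

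The other paralog tested was Rps27l, a relative of Rps27 that p53 can induce. Its level was 14.10 in the KitW-sh tumour, 13.74, 14.09 and 14.13 in cromolyn tumours, 14.25 and 14.51 in untreated tumours, and 14.64 and 14.07 in wild type. Wild type alone spanned most of that range, and no comparison was called. Rps27 itself had differences from untreated tumours of -0.45 with KitW-sh and -0.29 with cromolyn, not called.

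In a panel of subunits with known roles, the tested genes other than Rpsa had differences from untreated tumours below 0. Rplp0 and Rplp1, the stalk proteins that recruit elongation factors, had differences from untreated tumours of -0.25 and -0.05 with KitW-sh and of -0.11 and -0.04 with cromolyn. Rps6, the subunit phosphorylated downstream of mTOR, had -0.52 with KitW-sh and -0.41 with cromolyn. Rpl5, which with the 5S RNA binds Mdm2, had -0.33 with KitW-sh and -0.26 with cromolyn, and Rps19, the subunit most often mutated in Diamond-Blackfan anaemia, had -0.38 and -0.34. None of these differences was called.

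Rpl22, which also binds RNA outside the ribosome, had -0.43 with KitW-sh and -0.27 with cromolyn against untreated tumours. Rpl39, at the exit tunnel, had -0.25 and -0.32, Rpl10, which joins the large subunit late in its assembly, had -0.11 and -0.23, and the X-linked Rps4x had -0.07 and -0.11. Between untreated tumours and wild type the differences of Rplp0, Rplp1, Rps6, Rpl3, Rpl5, Rps19, Rps27, Rpl22, Rpl39, Rpl10 and Rps4x lay between -0.14 (Rplp0) and 0.36 (Rpl39). None of them was called in any of the 6 comparisons. Rpsa, also the laminin receptor, was at 6.99 in the KitW-sh tumour, 7.40, 6.75 and 7.25 in cromolyn tumours, 6.60 and 6.58 in untreated tumours, and 6.80 and 6.72 in wild type, all close to the limit, and was not called.

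For 13 genes more than 1 probe was above the limit, and the further probes were fitted beside the brightest. In a fit over 18063 probes, the 15 further probes held 1 rise and 3 falls with cromolyn and 0 rises and 1 fall with KitW-sh against untreated tumours. The shares over all probes were 19.1% higher and 17.5% lower with cromolyn, and 11.4% and 10.8% with KitW-sh. In no gene were probes called in opposite directions. The 3 genes behind these calls, Rpl31, Rpl23 and Rpl38, were named after their values were seen.

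For the 60S gene Rpl31 the further probe was at 11.32 in the KitW-sh tumour, 10.81, 11.48 and 11.18 in cromolyn tumours, 12.58 and 12.72 in untreated tumours, and 12.10 and 11.96 in wild type. Untreated tumours were highest and the tumours taken at 24 weeks lowest. Its differences from untreated tumours were -1.33 ± 0.30 with KitW-sh (limma adjusted p = 0.0215) and -1.50 ± 0.22 with cromolyn (0.00253), where the brightest probe gave -0.18 and -0.38 without a call. Further probes of Rpl23 gave -1.09 and -0.69 with cromolyn, where its brightest gave -0.25. For Rpl38 the further probe gave 1.06 with cromolyn (limma adjusted p = 0.0352). The brightest Rpl38 probe gave 0.03, but its intensity was 60529 to 66283 on every array, where a change may not be seen, so the 2 probes are not compared. The brightest Rpl23 probe was also bright, at 38386 to 59452. The parts of the messengers that these probes read are not analysed here.

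**Figure D4:**
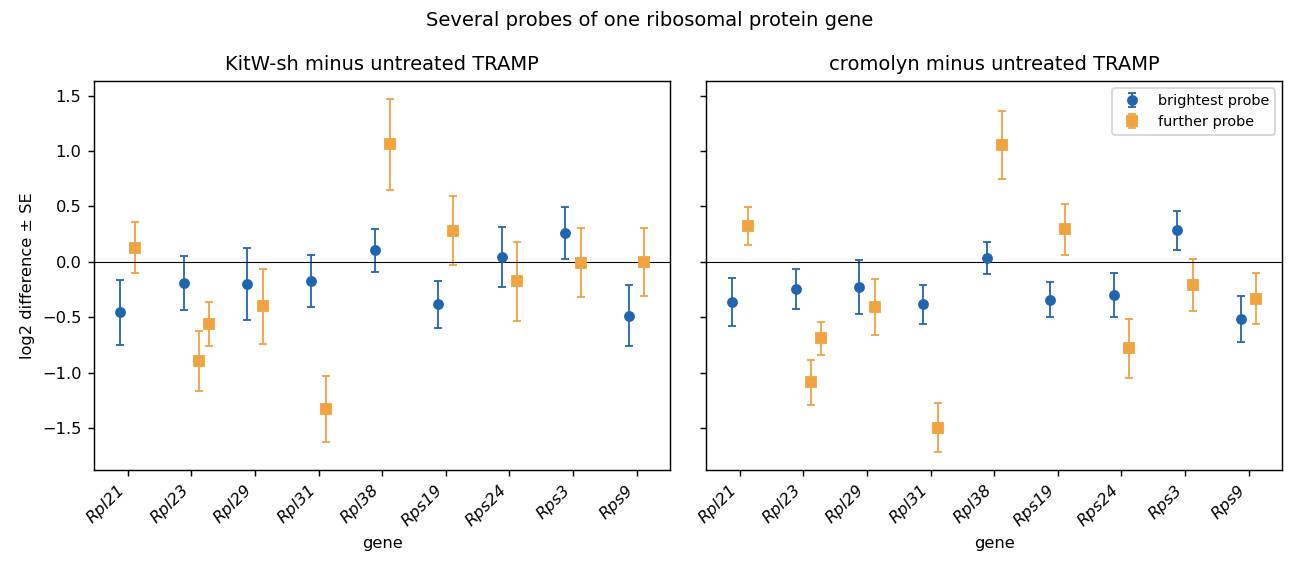
Log2 difference from untreated TRAMP tumours, with its SE, for the brightest probe (blue circles) and further probes above the limit on all arrays (orange squares) of ribosomal protein genes, for the KitW-sh tumour (left) and cromolyn tumours (right). Further probes of Rpl31 and Rpl23 lie well below their brightest probe. The brightest probe of Rpl38 had an intensity over 40000 on every array.

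Genes of other steps of translation did not all move the same way. Of 17 elongation factors and other TOP genes, 1 was higher and 3 lower with cromolyn, and 1 was higher and 0 lower with KitW-sh, against untreated tumours, with medians of -0.22 and -0.20. The falls with cromolyn were Eef1d (-0.80), a guanine exchange factor for elongation factor 1, Pabpc1 (-0.78), the poly(A) binding protein, and Tpt1 (-0.72). The rise in both was Hnrnpa1, an RNA-binding protein whose messenger carries a TOP motif, at 1.39 with KitW-sh and 1.04 with cromolyn. The Hnrnpa1 level was 12.94 in the KitW-sh tumour, 12.57, 12.51 and 12.72 in cromolyn tumours, 11.56 and 11.56 in untreated tumours, and 10.50 and 10.57 in wild type.

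Mitochondrial ribosomal proteins, which serve the separate ribosome of mitochondria, had a median of 0.35 with KitW-sh and 0.29 with cromolyn. Of 71 tested, 4 were higher and 0 lower with KitW-sh, and 17 were higher and 1 lower with cromolyn. Over all genes tested, 11.4% were higher and 11.2% lower with KitW-sh, and 18.8% and 18% with cromolyn. Mrps22 was among the rises, at 1.37 with KitW-sh and 1.36 with cromolyn, as was Mrpl20 at 1.33 and 1.29. Of 31 genes of ribosome assembly and rRNA synthesis, 2 were higher and 0 lower with KitW-sh (median 0.41), and 6 were higher and 3 lower with cromolyn (median 0.24). Nop56, a box C/D snoRNP protein, was higher by 1.25 and 1.03 and Bop1, which acts in 60S assembly, by 1.31 and 0.81, while Sbds, which helps release Eif6 from the 60S subunit, was lower by a difference of -1.18 with cromolyn.

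Of 15 initiation factors, 4 were higher and 0 lower with KitW-sh (median 0.37), and 5 were higher and 1 lower with cromolyn (median 0.34). Eif4g2 rose by 1.36 and 1.05 and Eif5a by 1.23 and 0.75, and Eif3a had a difference of -0.99 with cromolyn. Of 8 tested genes of the mTOR pathway, Eif4ebp2, a repressor of cap-dependent translation, was the one called against untreated tumours, with KitW-sh and with cromolyn. Its level was 12.08 in the KitW-sh tumour, 11.58, 11.25 and 11.51 in cromolyn tumours, 13.30 and 13.24 in untreated tumours, and 13.15 and 13.38 in wild type. The differences from untreated tumours were -1.19 with KitW-sh (limma adjusted p = 0.0149) and -1.82 with cromolyn (0.000480). These counts stand beside 22.6% of all genes called with KitW-sh and 36.9% with cromolyn, and the lists were not tested against other genes.

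**Figure D5:**
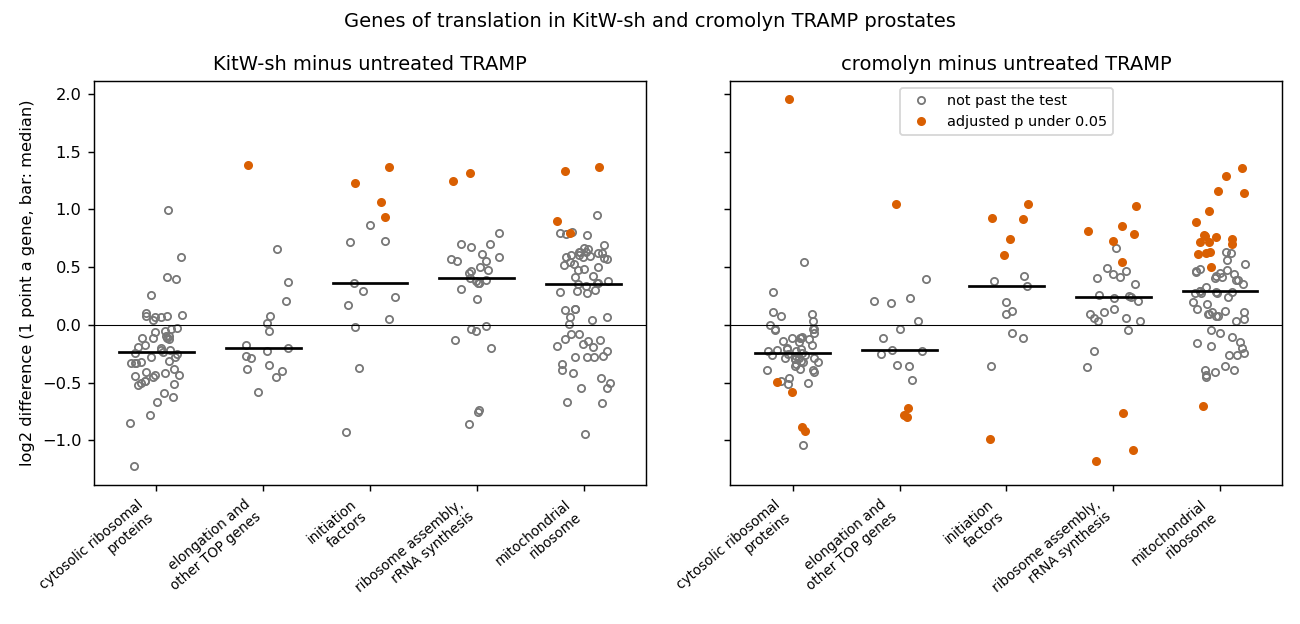
Log2 difference from untreated TRAMP tumours of each gene in 5 lists of the translation machinery, for the KitW-sh tumour (left) and cromolyn tumours (right). Points are genes, filled where the limma adjusted p is under 0.05, and bars are medians. The medians of the cytosolic ribosomal proteins lie at -0.23 and -0.25, and those of the mitochondrial ribosome at 0.35 and 0.29.

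The ribosomal protein genes were compared with their own mean over the 8 arrays as a description. Rpl27a (Pearson r = 0.93) and Rpl19 (0.91) followed it most closely, and Rps15a ran against it (-0.87). Outside the rule, the genes with the most similar pattern were Rasef (0.99), Rabgef1 (0.99), Nrbf2 (0.99), Sertad3 (0.99) and Uhrf1bp1l (0.98), over 8 arrays that fall into the groups of the study.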

How the data were processed

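The deposited values are the intensity of each of 25697 probes on each array, on a linear scale, and per the submitters' processing notes the authors used BeadStudio, without a version. Sorted, the arrays' values were within 0.0489 (log2) of each other, as after quantile normalization, and background had not been subtracted. Further steps are not given in the sources used here. Another deposited table holds 16 value columns under slide positions that match no sample's labels, and these were left unused. The labels name no batch for any sample.

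From the intensities, log2 levels were computed with limma 3.58.1 in R 4.3.3 (normexp with offset 50, then quantile normalization). The limit of 216 was the 0.99 quantile of a background fitted to the dim side (mode 181, SD 15.2). A single symbol was paired with 23978 probes, and 1719 had none. limma's fit with 4 residual and 2.62 prior degrees of freedom gave two-sided p-values, with Benjamini-Hochberg adjustment inside every one of the 6 comparisons. Named were the 8 largest called rises and falls of untreated tumours against wild type and of cromolyn and KitW-sh against untreated tumours, up to 3 in the other comparisons, a fixed panel of subunits, the paralogs, genes below the limit on every array and the 5 genes most like the mean. Rpl11 of that panel is not analysed here. The genes and lists were chosen with earlier results of these data known, and so were the single genes followed through the alternatives. The scripts were checked on simulated data with known answers. A log2 difference of 1 was recovered in 2% of changed genes for KitW-sh and 26% for cromolyn against untreated tumours. For untreated tumours against wild type it was recovered in 14%. A difference of 2 was recovered in 50%, 72% and 70%. Fewer genes were changed there than were called in the data, so recovery in the data may differ. A gene that was not called may still differ. Alternatives were another offset, no background correction, other normalizations and filters, the mean over probes, fits of 2 groups, trend and robust estimation, the replicate number as a block, and leaving out each array.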

Additional observations from a re-analysis of the deposited data

How the results depend on the processing

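No direction was reversed among 682 alternative values of 39 differences of single genes, of which 583 kept their side of the threshold, 84 lost a call and 15 gained one. The medians of the ribosomal protein genes moved by at most 0.115 (log2) under the alternatives run, the most with cyclic loess for KitW-sh against wild type. For untreated tumours against wild type the count of lower genes was 0 with only probes above the limit on all arrays, and 0 when only genes above the limit on all arrays were counted (an alternative chosen after seeing the data), since both leave out Rpl3l. For cromolyn against untreated tumours the count of lower genes was 2 with offset 16, and leaving out 1 array gave 0 to 4, with 0 without either untreated tumour, and 1 to 2 higher. For KitW-sh against untreated tumours the count of higher genes was 1 with only probes above the limit on all arrays, 1 with the mean over probes and 2 in a fit of these 2 groups. The count of lower genes was 1 without background correction, 1 with trend and robust estimation and 7 in a fit of 2 groups, and leaving out 1 array gave 0 to 1 higher and 0 to 2 lower. Against wild type, leaving out 1 array gave 1 to 2 higher and 2 to 9 lower with cromolyn, and 0 to 3 higher and 1 to 6 lower with KitW-sh. For KitW-sh against wild type a fit of 2 groups gave 0 higher and 2 lower, trend and robust estimation gave 8 lower, and leaving out genes over an intensity of 40000, chosen after seeing the data, gave 1 higher. The cause of the other changes was not tested. With the replicate number as a block, cromolyn tumours had 1 gene lower than untreated tumours and 5 lower than wild type. The KitW-sh tumour had 0 genes higher and 2 lower than wild type. Samples of the same number had correlations of deviations of 0.00211 to 0.0743. In a group of 2 arrays the deviations mirror each other, so these values cannot show whether samples of the same number belong together. The share of all genes called also moved. With the replicate block it was 14.3% for KitW-sh against untreated tumours and 3.20% for untreated tumours against wild type, in place of 22.6% and 6.61%, and in fits of 2 groups 47.5% and 11.2%. Without untreated replicate 1 or 2 it was 9.29% or 9.23% for KitW-sh and 18.6% or 19.0% for cromolyn against untreated tumours (36.9% with both), and 2.05% or 1.54% for untreated tumours against wild type. That last comparison gave 3.20% without wild-type replicate 2 and 10.04% without cromolyn replicate 2. Of a 1-array group the spread is unknown, and signals near the background limit or over 40000 may understate a difference.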
